A study of Mus musculus with 550 samples.

Results

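The genes Slc6a12, Prss35, Moxd1, Calcoco2, Pgc and Dnah11 were followed across single cells of mouse embryoid bodies. They are 6 of the 55228 rows of the count table and were chosen by name because they were high in Dnmt3b knockout cells at day 9. The day 9 levels of the Dnmt3b knockout against wild type therefore selected the genes, and those values are given as a description without a test. All 6 were measured and each is accounted for below.

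Embryoid bodies are clusters of differentiating stem cells that form in suspension. Here they came from E14 mouse embryonic stem cells (strain 129/Ola) after withdrawal of LIF, the factor that holds such cells in an undifferentiated state. The groups were wild type (WT) and cells with a homozygous knockout of Dnmt3a (3AKO) or Dnmt3b (3BKO), the genes of both de novo DNA methyltransferases, each collected at day 3 and at day 9, with library batches 1 and 2 in every group. Libraries covered whole polyadenylated transcripts (Smart-seq2), with 1 sorted cell in a well. The study's methods name independent knockout clones and pools of embryoid bodies, but the labels do not tell clones or cultures apart, so each genotype at each day counts as 1 sample and no difference between groups was tested.

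The products of these genes work in different systems. SLC6A12 is a membrane transporter of betaine and GABA that takes up osmolytes. PRSS35 belongs to the trypsin-like serine protease family, and MOXD1 is a relative of dopamine beta-hydroxylase among the copper monooxygenases. CALCOCO2, also known as NDP52, is a receptor that links cargo to the autophagy machinery. PGC is progastricsin, the precursor of an aspartic protease of the stomach, and DNAH11 is a heavy chain of the axonemal dynein that moves cilia, known for its part in left-right asymmetry. DNMT3A and DNMT3B add methyl groups to cytosines, mainly in CG dinucleotides.

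For 5 of the 6 genes a RefSeq window around the start site was used (build GRCm38.p6, 250 bases before the start and 50 after it, read along the strand of the gene). The windows are shown because these genes were high in the same group, and because CG is the dinucleotide on which both knocked-out enzymes act. Capitals mark each CG, which reads the same on both strands. The windows lie at chr6:121342826-121343125 on the plus strand for Slc6a12 (the 1 of 5 listed starts that matches the annotated gene start), chr9:86743383-86743682 on the plus strand for Prss35, chr10:24223267-24223566 on the plus strand for Moxd1, chr17:47726592-47726891 on the plus strand for Pgc and chr12:118198994-118199293 on the minus strand for Dnah11.
Slc6a12 promoter: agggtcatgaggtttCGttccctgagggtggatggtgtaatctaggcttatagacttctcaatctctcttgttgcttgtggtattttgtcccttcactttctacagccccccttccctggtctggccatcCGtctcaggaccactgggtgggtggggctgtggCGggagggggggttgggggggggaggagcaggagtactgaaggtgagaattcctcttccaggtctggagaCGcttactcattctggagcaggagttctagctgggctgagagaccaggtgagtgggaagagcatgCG
Prss35 promoter: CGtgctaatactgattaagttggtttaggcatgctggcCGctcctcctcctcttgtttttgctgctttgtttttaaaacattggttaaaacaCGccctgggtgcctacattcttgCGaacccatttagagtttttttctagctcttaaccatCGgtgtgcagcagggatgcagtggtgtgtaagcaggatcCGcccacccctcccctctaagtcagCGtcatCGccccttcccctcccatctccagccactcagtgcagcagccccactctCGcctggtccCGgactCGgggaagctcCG
Moxd1 promoter: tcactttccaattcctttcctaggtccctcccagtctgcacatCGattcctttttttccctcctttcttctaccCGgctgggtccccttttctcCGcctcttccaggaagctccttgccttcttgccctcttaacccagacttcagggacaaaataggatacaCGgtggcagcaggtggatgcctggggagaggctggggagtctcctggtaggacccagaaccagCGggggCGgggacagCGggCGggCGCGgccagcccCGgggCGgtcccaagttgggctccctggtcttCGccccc
Pgc promoter: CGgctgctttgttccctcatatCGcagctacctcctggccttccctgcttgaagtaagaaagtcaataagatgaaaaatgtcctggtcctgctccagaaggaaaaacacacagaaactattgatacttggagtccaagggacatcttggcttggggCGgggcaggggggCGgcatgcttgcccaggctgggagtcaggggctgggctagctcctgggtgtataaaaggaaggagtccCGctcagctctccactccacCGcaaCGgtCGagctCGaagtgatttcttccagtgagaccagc
Dnah11 promoter: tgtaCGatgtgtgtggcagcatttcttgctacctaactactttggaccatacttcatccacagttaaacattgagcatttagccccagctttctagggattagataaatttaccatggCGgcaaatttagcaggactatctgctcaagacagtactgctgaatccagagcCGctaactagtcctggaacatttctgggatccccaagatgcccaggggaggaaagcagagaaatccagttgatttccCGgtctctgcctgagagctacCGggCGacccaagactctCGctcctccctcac
The number of CG was 5 in the Slc6a12 window, 12 in Prss35, 13 in Moxd1, 9 in Pgc and 7 in Dnah11. Over 32851 mouse windows of the same length the median was 7 CG, the quartiles were 3 and 20, and 94.6% held at least 1. All 5 windows shown lay between those quartiles, so none lay in the CG-rich upper part of the distribution. The windows at the other listed Slc6a12 starts held 2, 2, 5 and 3 CG, some of them below the lower quartile. For Prss35 the start used, 86743633, does not match the annotated gene start. Methylation was not measured in the files used here.

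After the study's filter on cells (at least 50000 assigned reads, at least 2000 detected genes and at most 50% mitochondrial reads) 486 of 550 cells remained, 333 of batch 1 and 153 of batch 2. Their depth ran from 54720 to 1450202 assigned reads, and at day 9 the kept cells were 89 WT, 88 3AKO and 67 3BKO cells. At day 9 the summed level of Dnmt3b was 167 CPM (reads of the gene, summed over cells, scaled to 1000000 assigned reads) in WT and 16.4 CPM in 3BKO, and that of Dnmt3a was 166 CPM in WT and 25.2 CPM in 3AKO, so the low gene matched the label in both knockouts. At day 3 the labels and the plates crossed. The libraries labelled 3AKO batch 1 and 3BKO batch 2 shared plate 211 and held Dnmt3a at 25.8 and 12.8 CPM, against 587 and 335 CPM in the libraries labelled 3BKO batch 1 and 3AKO batch 2 on plate 210, so day 3 values are given by library and plate. Whether the batch 2 labels of the knockouts at day 3 are exchanged was not settled, and no direction by genotype is drawn at day 3. Each day 9 group filled 1 plate of its own, so plate, knockout line and genotype cannot be told apart at day 9. At day 9 Eif2s3y had no read in the 67 3BKO cells, 159 CPM in WT and 103 CPM in 3AKO.

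In 3BKO cells at day 9 all 6 genes were higher than in WT and in 3AKO, in both batches. The lower of the 3BKO batches was above each of the other 10 sums of group and batch for every one of the 6 genes. The margin over the highest of those 10 sums was 13.1-fold for Slc6a12, 5.60-fold for Prss35, 5.19-fold for Dnah11, 4.53-fold for Moxd1, 3.53-fold for Calcoco2 and 2.32-fold for Pgc. The plot of levels by group and batch shows this gap.

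**Figure D1:**
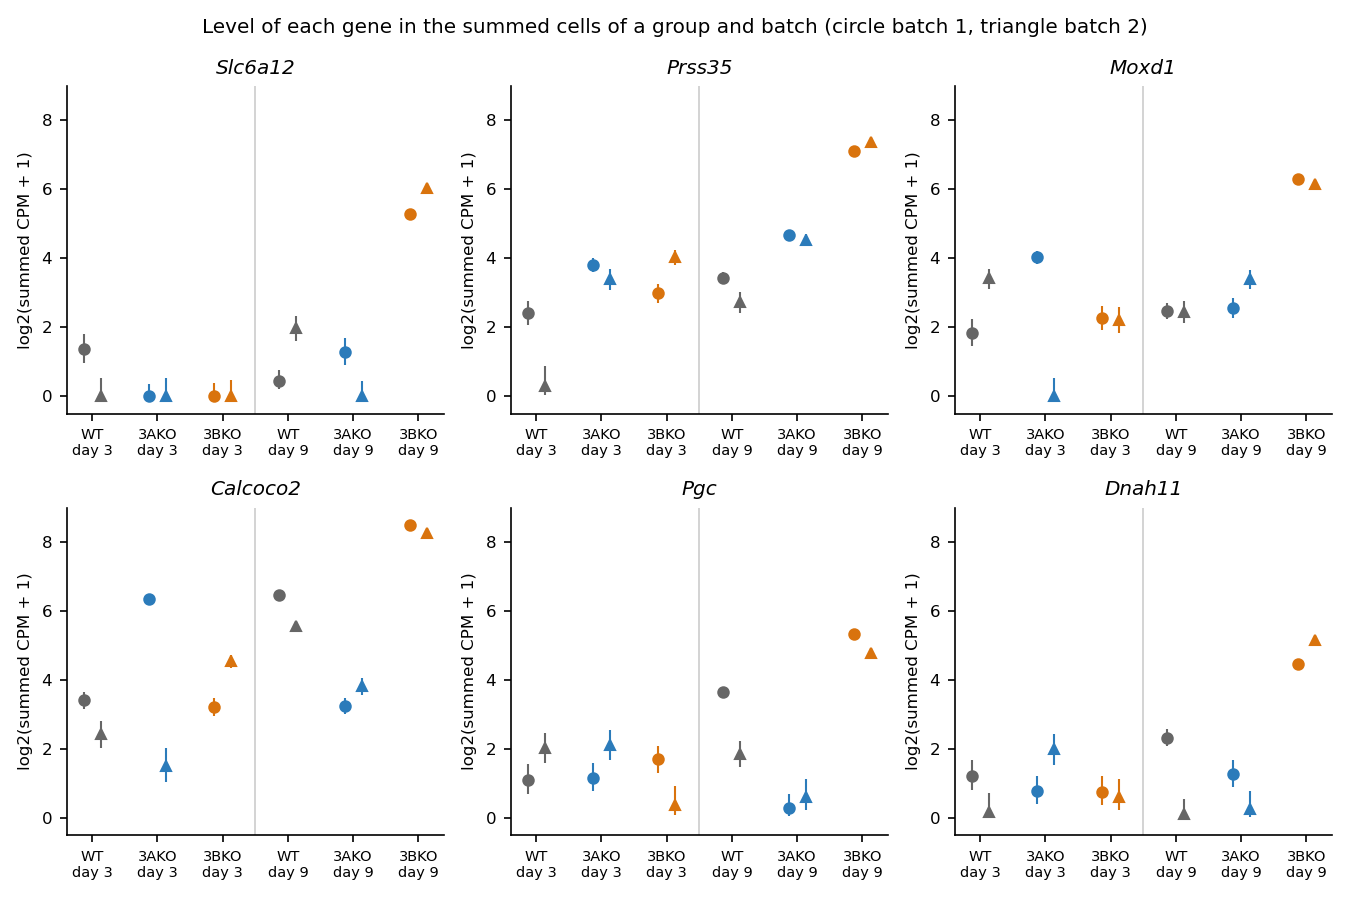
Level of each gene, as log2 of the summed CPM plus 1, for the cells of each group and day. Circles are batch 1 and triangles batch 2, lines are exact 95% Poisson intervals (counting error only), and both 3BKO day 9 points are the highest in each panel.

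Slc6a12 (ENSMUSG00000030109.15, chr6:121343076-121365775, plus strand) was read in few cells outside the 3BKO group at day 9. Its summed level at day 9 was 0.350 and 2.93 CPM in WT (batches 1 and 2), 1.43 and 0 CPM in 3AKO, and 38.3 and 64.6 CPM in 3BKO. Both 3BKO values lay above all WT and 3AKO values, and the pooled level in 3BKO was 42.4 times that in WT (52.4 CPM, 95% Poisson interval 49.9 to 55, against 1.23 CPM, 0.894 to 1.66). Poisson intervals here and below treat reads as independent, although PCR copies of a molecule are counted as separate reads. They leave out the spread between cells and are therefore too narrow. The WT reads came from 3 cells, 1 of which held 81.4% of them. Without that cell the WT level was 0.231 CPM. Among 3BKO cells with a read the level ran from 5.87 CPM through a median of 165 CPM to 1801 CPM, and 21 of 67 cells had a read. Most 3BKO cells thus had no Slc6a12 read, and the level was carried by a minority of cells.

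Prss35 (ENSMUSG00000033491.13, chr9:86743649-86758443, plus strand) was low but present in every day 9 group. It stood at 9.80 and 5.61 CPM in WT, 24.4 and 22.2 CPM in 3AKO, and 137 and 164 CPM in 3BKO. Prss35 was the 1 gene of the 6 with both 3AKO batches above both WT batches by over 2-fold (log2 ratios with 1 CPM added, 1.24 and 1.81). The pooled 3BKO level, 151 CPM (147 to 156), was 18.1 times the WT level of 8.36 CPM (7.42 to 9.37). Reads were found in 14 of 89 WT cells, 14 of 88 3AKO cells and 44 of 67 3BKO cells. Among cells with a read the median was 44.8 CPM in WT, 120 CPM in 3AKO and 164 CPM in 3BKO. These values use all reads, and the median depth was 363652 reads in WT and 237448 reads in 3AKO cells. With every cell thinned to equal depth, Prss35 was read in 10 of 89 WT and 14 of 88 3AKO cells. Whether 3AKO and WT differed in level per cell or in the number of cells with a read was not tested.

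Moxd1 (ENSMUSG00000020000.7, chr10:24223517-24302790, plus strand) was close in WT and 3AKO. Its level was 4.55 and 4.43 CPM in WT, 4.94 and 9.49 CPM in 3AKO, and 77.9 and 69.8 CPM in 3BKO. The 3BKO cells with a read, 21 of 67, had a median of 259 CPM and a highest value of 770 CPM, against 42.8 and 174 CPM in 8 WT cells. Pooled over batches the level was 73.6 CPM (70.5 to 76.7) in 3BKO, 16.3 times the 4.51 CPM (3.83 to 5.27) of WT. Most 3BKO cells with Moxd1 reads lay above the highest WT cell, as the plot of single cells shows.

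Calcoco2 (ENSMUSG00000006056.13, chr11:96099326-96111964, minus strand) was high in a few WT cells and lowest in 3AKO. It stood at 86.7 and 46 CPM in WT, 8.46 and 13 CPM in 3AKO, and 358 and 306 CPM in 3BKO. A single WT cell of batch 1 held 74.7% of the reads of that batch, and without it the level was 22.4 CPM in batch 1 and 30.6 CPM over both batches. The pooled 3BKO level was 4.54 times that of WT (330 CPM, 324 to 337, against 72.7 CPM, 69.9 to 75.6). It was read in 46 of 67 3BKO cells with a median of 393 CPM, and in 18 of 89 WT cells with a median of 145 CPM. The highest WT cell, at 2986 CPM, was level with the highest 3BKO cell, at 2932 CPM.

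Pgc (ENSMUSG00000023987.14, chr17:47726842-47734482, plus strand) was read in about as many 3BKO cells as Prss35. Its level was 11.5 and 2.59 CPM in WT, 0.215 and 0.505 CPM in 3AKO, and 39.3 and 26.5 CPM in 3BKO. Its pooled level in 3BKO was 32.5 CPM (30.5 to 34.5), 3.86 times the 8.41 CPM (7.48 to 9.44) of WT. Reads were present in 43 of 67 3BKO cells (median 39.6 CPM), 15 of 89 WT cells (median 23.3 CPM) and 4 of 88 3AKO cells (median 8.02 CPM). The WT and 3BKO cells with a read overlapped widely, with highest cells of 250 and 369 CPM, so the groups were set apart mainly by how many cells held the transcript.

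Dnah11 (ENSMUSG00000018581.15, chr12:117877982-118199043, minus strand) was 4.02 and 0.0837 CPM in WT, 1.43 and 0.202 CPM in 3AKO, and 20.9 and 35 CPM in 3BKO. A single WT cell held 65.6% of the WT reads, and the remaining WT cells had 0.932 CPM. The pooled 3BKO level of 28.4 CPM (26.6 to 30.4) was 10.6 times the 2.67 CPM (2.16 to 3.27) of WT. Of its exon bases 4.44% overlap Cdca7l on the opposite strand, and the strand setting of the counting is not given in the sources used here. Cdca7l itself was 48.7 CPM in 3BKO and 46.5 CPM in WT. The other 5 genes share no exon base with another gene of the annotation.

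**Figure D2:**
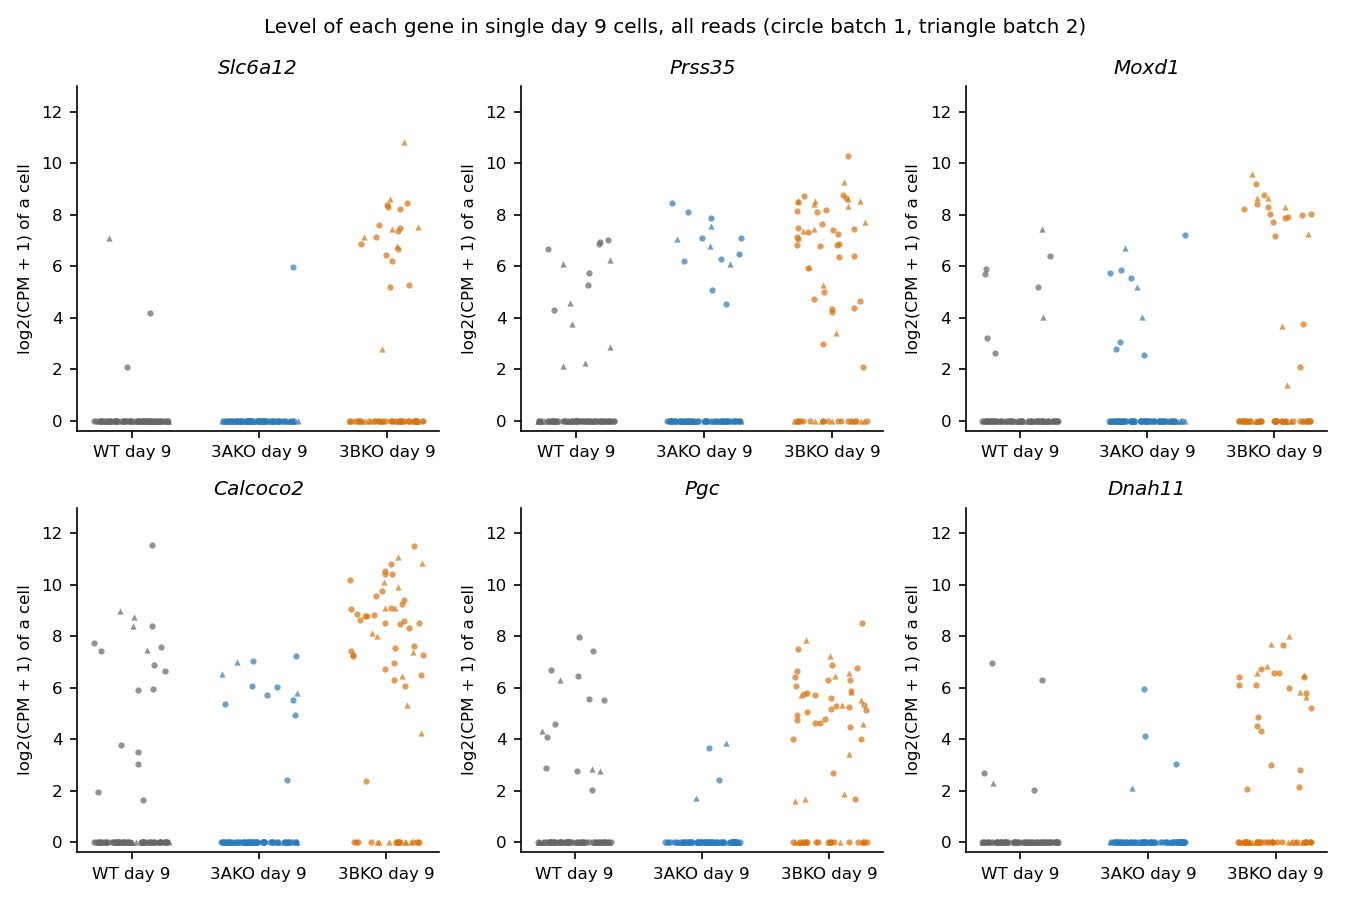
Level of each gene in each kept day 9 cell, as log2(CPM + 1) with all reads of the cell, with horizontal jitter only. Circles are batch 1 and triangles batch 2, points at 0 are cells with no read, and in all 6 genes the 3BKO group holds the largest number of cells above 0.

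Per kilobase of exon, which allows levels to be set between genes, Calcoco2 was the highest of the 6 in 3BKO day 9 cells at 221 and 189 CPM per kb (batches 1 and 2), and Prss35 followed at 39.8 and 47.6. Pgc at 28.3 and 19.1, Moxd1 at 24.3 and 21.8 and Slc6a12 at 12.6 and 21.2 CPM per kb came next. The batches of Pgc enclosed those of Moxd1, and those of Slc6a12 reached above the lower Pgc value, so Pgc did not differ from Moxd1 or Slc6a12 beyond the spread between batches. Both Slc6a12 batches lay below those of Moxd1, but the nearest values, 21.2 and 21.8, were close. Both batches are wells of 1 plate, so their spread is not that of replicates. Dnah11, whose exons add up to 14458 bases, was lowest at 1.44 and 2.42 CPM per kb.

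A gene is called past the fold here when its log2 ratio, with 1 CPM added to both levels, was at least 1 in size and in the same direction in both batches, among genes that, in both batches, had reads in 20% or more of the cells of WT or of the knockout. In 3BKO against WT at day 9 this held for 264 of 9235 genes (2.86%) in the higher direction and 4.98% in the lower. All 6 genes were past the fold in the higher direction, as their choice required. Their pooled log2 ratios were 4.58 for Slc6a12, 4.03 for Prss35, 3.76 for Moxd1, 3.00 for Dnah11, 2.17 for Calcoco2 and 1.83 for Pgc, with a median of 3.38, beside a median of -0.08 over all detected genes. Without the WT cell with the most Calcoco2 reads, a setting chosen after seeing the data, the log2 ratio of Calcoco2 was 3.39. Against 3AKO at day 9, where 4.56% of 9152 genes were past the fold in the higher direction, all 6 were again higher in 3BKO, with log2 ratios from 2.64 (Prss35) to 4.87 (Calcoco2). This comparison shares the 3BKO cells with the first.

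In 3AKO against WT, which shares the WT cells with the comparison above, the genes did not move one way. The share of all detected genes past the fold was 1.07% higher and 1.59% lower. None of the 6 was read in 20% of the cells of either group in both batches, so none could be called. Log2 ratios in batches 1 and 2 were 1.24 and 1.81 for Prss35 and 0.10 and 0.95 for Moxd1, and -3.21 and -1.75 for Calcoco2 and -3.36 and -1.26 for Pgc. Slc6a12 (0.85 and -1.97) and Dnah11 (-1.05 and 0.15) changed sign between batches, on few reads. For Slc6a12 there were 8 WT and 20 3AKO reads in batch 1, and 35 and 0 in batch 2. Dnah11 in batch 2 had 1 WT and 2 3AKO reads, too few to give a direction. The median over the 6 was -0.61, and it was 0.27 when the WT cell with the most reads of each gene was left out, a setting chosen after seeing the data, so its direction rested on few WT cells.

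Depth differs between cells, so shares of cells were compared after every cell was thinned to 50000 reads, with 1 read enough to count. In 3BKO at day 9, Calcoco2 was read in 67.2% of cells (exact 95% binomial interval 54.6 to 78.2), Prss35 in 58.2% (45.5 to 70.2) and Pgc in 52.2% (39.7 to 64.6). These 3 were thus read in most 3BKO cells. Dnah11 was read in 31.3% (20.6 to 43.8), and Slc6a12 and Moxd1 in 28.4% each (18 to 40.7). Shares in WT were 15.7% (8.88 to 25.0) for Calcoco2, 12.4% (6.33 to 21) for Pgc, 11.2% (5.52 to 19.7) for Prss35, 4.49% (1.24 to 11.1) for Moxd1 and 2.25% (0.273 to 7.88) for both Slc6a12 and Dnah11. In 3AKO they ran from 1.14% for Slc6a12 to 15.9% for Prss35. These intervals cover the counting of cells only, because cells of 1 sample are not replicates.

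**Figure D3:**
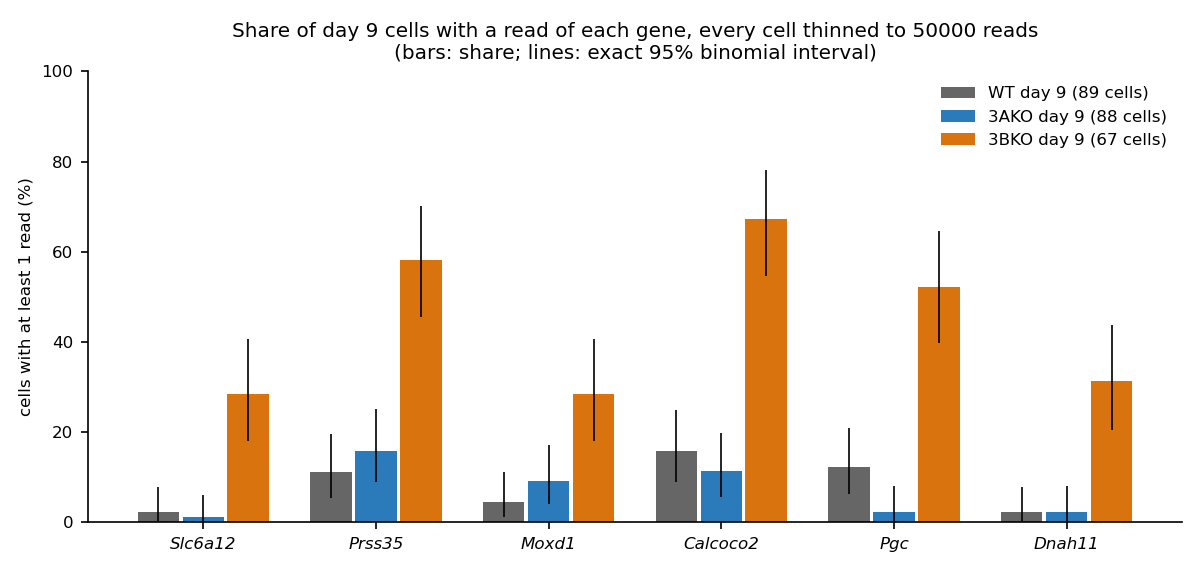
Share of day 9 cells with at least 1 read of each gene after thinning to 50000 reads per cell, for WT (grey), 3AKO (blue) and 3BKO (orange). Lines are exact 95% binomial intervals, and the 3BKO share runs from 28.4% (Slc6a12 and Moxd1) to 67.2% (Calcoco2).

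The reads of the 6 genes were spread over nearly all 3BKO cells, but in different combinations. Of 67 thinned 3BKO cells, 6 had none of the genes, 11 had 1, 15 had 2, 17 had 3, 7 had 4, 8 had 5 and 3 had all 6. Thus 91% (81.5 to 96.6) had at least 1 gene and 74.6% (62.5 to 84.5) at least 2. In WT 61 of 89 cells had none, 18 had 1, 5 had 2 and 5 had 3, so 31.5% (22 to 42.2) had at least 1 and 11.2% (5.52 to 19.7) at least 2. In 3AKO 30.7% had at least 1 and 9.09% (4.01 to 17.1) at least 2, close to WT. The share of cells with at least 2 genes was 63.4 percentage points higher in 3BKO than in WT (95% interval 48.6 to 74.8, counting error only), and it was 66.6 points in batch 1 and 56.3 points in batch 2. With all reads the shares with at least 2 genes were 79.1% in 3BKO, 13.5% in WT and 11 of 88 cells in 3AKO.

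**Figure D4:**
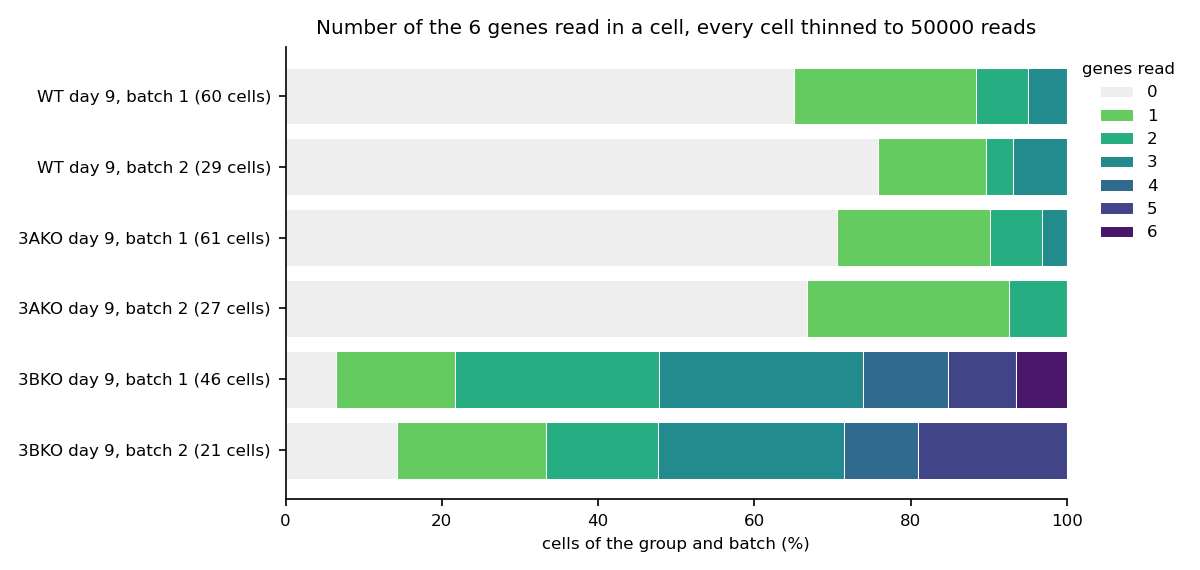
Number of the 6 genes read in a cell after thinning to 50000 reads, as a share of the cells of each day 9 group and batch. Grey is no gene and darker colours are more genes, and in both 3BKO batches over 60% of the cells hold 2 or more (78.3% and 66.7%), against 11.7% and 10.3% in the WT batches.

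Some WT cells held reads of more than 1 of the 6 genes. Among the 10 thinned WT cells with Prss35, 6 had another of the 6 genes, against 18 of the 79 cells without Prss35 reads. For Pgc the shares were 63.6% (30.8 to 89.1) of 11 cells against 21.8% (13.2 to 32.6), and for Calcoco2 they were 42.9% (17.7 to 71.1) of 14 cells against 18.7% (10.6 to 29.3). With all reads of each cell the shares were 42.9% against 37.3% for Prss35, 60% against 36.5% for Pgc and 44.4% against 33.8% for Calcoco2, so the gap for Prss35 was small without thinning. The intervals overlapped for the 3 genes both after thinning and with all reads. For Prss35 after thinning they were 26.2 to 87.8% against 14.1 to 33.6%. Both WT cells with Slc6a12 and both with Dnah11 had another gene, and the most frequent pairs were Prss35 with Calcoco2 and Calcoco2 with Pgc, in 4 cells each. Across WT cells the correlation of log2(CPM + 1) over the 15 pairs of genes had a median Pearson r of 0.16 (-0.12 to 0.39, 89 cells), and across 3BKO cells 0.23 (-0.0048 to 0.49, 67 cells). Slc6a12 with Pgc had the highest r in 3BKO, 0.43 in batch 1 and 0.63 in batch 2.

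With all reads used, 7 WT cells held 3 or more of the genes, 4 of batch 1 and 3 of batch 2. Calcoco2 was read in 6 of the 7 and Pgc in 6, while Prss35 was read in 4, Moxd1 in 3, Slc6a12 in 2 and Dnah11 in 2. All 7 had Zfp42, which encodes REX1 and marks naive pluripotent cells, at 209 to 5145 CPM. Dnmt3b was absent in 6 of them and had 1 read in the other. Dnmt3a was read in 6 of the 7, with 1 to 142 reads per cell.

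Over all 89 WT cells the number of the 6 genes read went up with Zfp42 and down with Dnmt3b, for Dnmt3b not step by step. Zfp42 had a median of 39.7 CPM in the 47 cells with none of the genes, 944 CPM in the 30 cells with 1, and 1277 CPM in the 12 cells with 2 or more. Zfp42 was read in 61.7% (46.4 to 75.5) of the first set and in all 12 of the last (73.5 to 100). Dnmt3b was read in 74.5% (59.7 to 86.1) of the cells with none of the genes and in 5 of the 12 cells with 2 or more (41.7%, 15.2 to 72.3). By step it was read in 63.3% of the cells with 1 gene, 4 of 5 with 2 and 1 of 7 with 3 or more. Median depth was 384815 reads in the cells with none and 358784 reads in those with 2 or more, so the latter were not the deeper cells. The correlation of the number of genes read with log2(CPM + 1) was r = 0.46 and 0.34 for Zfp42 and r = -0.26 and -0.48 for Dnmt3b in batches 1 and 2, and with log2 of the assigned reads it was 0.13 and -0.06.

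Seen the other way, after thinning 8 of 37 WT cells without a Dnmt3b read held 2 or more of the genes (21.6%, 9.83 to 38.2), against 2 of 52 with one (3.85%, 0.469 to 13.2). In 3AKO, where Dnmt3b is intact, the values were 5 of 26 (19.2%, 6.55 to 39.4) and 3 of 62 (4.84%, 1.01 to 13.5). In 3BKO the share was 74.5% (61 to 85.3) of 55 cells without a Dnmt3b read, and 75.0% (42.8 to 94.5) of the 12 cells in which Dnmt3b reads remained. By batch it was 8 of 8 and 1 of 4 cells with Dnmt3b reads, against 28 of 38 and 13 of 17 without. The direction thus differed between batches, on few cells with Dnmt3b reads. No thinned WT cell without Zfp42 held 2 or more of the genes (0 of 21, which allows a share of up to 14.3%), while all 67 3BKO cells had Zfp42 reads. At or above the median Zfp42 level of 3BKO cells, 2495 CPM, a limit chosen after seeing the data, 5 of 9 WT cells held 2 or more genes (55.6%, 21.2 to 86.3), against 28 of 34 3BKO cells (82.4%, 65.5 to 93.2). The part of the Zfp42 level in the difference between genotypes was not tested.

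**Figure D5:**
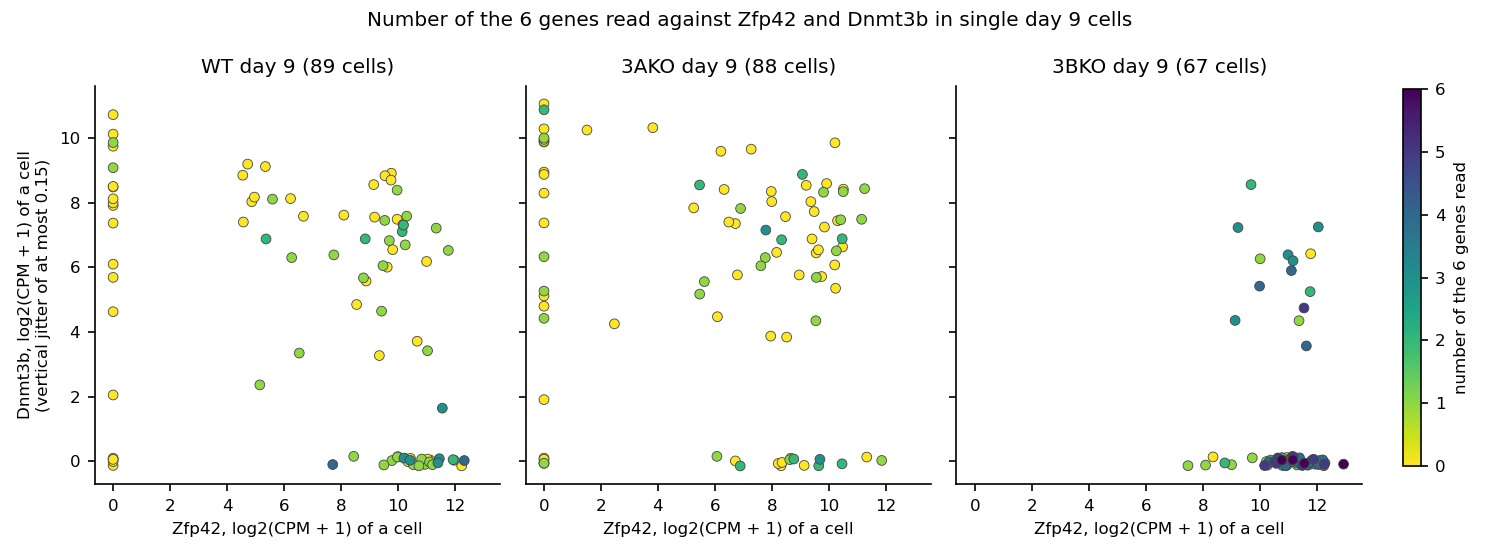
Each point is 1 day 9 cell, placed by its log2(CPM + 1) of Zfp42 (horizontal) and Dnmt3b (vertical, with jitter) and coloured by how many of the 6 genes had a read, with all reads used. Of the 12 WT cells with 2 or more of the genes, 5 have Dnmt3b reads and the others lie on the line at 0, with Zfp42 from 209 to 5145 CPM in the 7 WT cells with 3 or more.

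Y-linked transcripts were absent from the 3BKO group at day 9, while in WT the 6 genes were read in cells with and without them. All 4 Y-linked genes of a list had no read in 3BKO at day 9 and summed to 207 CPM in WT and 119 CPM in 3AKO. In thinned WT cells 2 or more of the 6 genes were held by 4 of 48 cells with Eif2s3y (8.33%, 2.32 to 19.98) and by 6 of 41 without it (14.6%, 5.57 to 29.2). Whether a difference goes with the line or with the knockout cannot be told apart in these samples.

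At day 3 the 6 genes were lower in every library than in 3BKO at day 9. Calcoco2 reached 80.8 CPM in 1 of these libraries, against 86.7 and 46 CPM in WT at day 9 (batches 1 and 2). Among 242 kept day 3 cells, Slc6a12 was read in 1 (18 reads, WT), Dnah11 in 12, Moxd1 in 18, Pgc in 21, Prss35 in 43 and Calcoco2 in 69. The highest of the 6 day 3 libraries reached 1.6 CPM for Slc6a12, 2.97 for Dnah11, 3.35 for Pgc, 15.3 for Prss35, 15.4 for Moxd1 and 80.8 for Calcoco2, each below both 3BKO day 9 values. Calcoco2 and Prss35 were both higher on plate 211 than on plates 209 and 210, in both batches. Calcoco2 was 80.8 and 22.2 CPM in the libraries labelled 3AKO batch 1 and 3BKO batch 2 on plate 211, where Dnmt3a was low, and 8.30 and 1.86 CPM in those labelled 3BKO batch 1 and 3AKO batch 2 on plate 210. The WT batches on plate 209 had 9.60 and 4.37 CPM. Calcoco2 was read in 28 of 58 and 10 of 26 cells on plate 211 and in 10 of 54 and 2 of 25 cells on plate 210, so the number of cells with a read went the same way as the level. Prss35 was 13 and 15.3 CPM on plate 211, 6.97 and 9.54 CPM on plate 210 and 4.36 and 0.236 CPM in WT, and Slc6a12 had no read in any mutant day 3 library.

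A neighbour of Slc6a12 and a neighbour of Prss35 were also higher in 3BKO at day 9. Slc6a13, a paralogue that transports GABA and starts upstream of Slc6a12 on the same strand (the gap is 5343 bases), had 12 and 4.74 CPM in 3BKO, from 6 of 46 and 5 of 21 cells, against 0.0437 and 0.251 CPM in WT. It was below the detection limit. Me1, the cytosolic malic enzyme and the neighbour of Prss35 at 47696 bases, was 51.3 CPM in 3BKO and 9.62 CPM in WT, with log2 ratios of 2.26 and 2.46, and was past the fold. Of the 12 nearest protein-coding neighbours, 1 on each side of each gene, 5 were detected. Me1 was the 1 of these past the fold in the higher direction, where 2.86% of all detected genes were. The other detected neighbours had log2 ratios from -0.39 for Atp5g1 to 1.44 for Frs3. Tfeb, which lies 2548 bases from Pgc and encodes a regulator of lysosome genes, was 5.65 CPM in 3BKO and 4.19 CPM in WT. Most of the 5 detected neighbours thus did not share the large differences, and the undetected ones, Slc6a13 among them, could not be called.

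Relatives of the 6 genes, listed by family without the genes themselves, were mostly not detected. In the SLC6 family 3 of 19 were, with Slc6a8, a creatine transporter, past the fold in 3BKO (log2 ratio 1.95), the amino acid transporter Slc6a15 lower (-1.62) and the taurine transporter Slc6a6 at 0.31. For osmotic stress genes 7 of 9 were detected and 2 were past the fold, Sgk1 (1.82), a kinase that regulates ion transport, and Akr1b3 (1.26), the aldose reductase that makes sorbitol, while Slc5a3, an inositol transporter, was at -0.18 and 2.31 in batches 1 and 2 and Nfat5, the factor that drives the osmotic response, was at 0.23. The median over the 7 was 0.58. Among 12 genes of autophagy receptors and their partners, all detected, Gabarapl2 (1.46) and Azi2 (1.11) were higher and Optn (-1.89) lower, with a median of 0.34. Prss36 was the 1 detected of 11 PRSS genes (-0.30), Dnah8 the 1 of 15 measured axonemal dyneins (-0.75), and none of 3 other copper monooxygenase genes was detected. Of 8 aspartic proteases, Ctsd (0.45), Bace1 (0.71) and Napsa (-1.10) were detected and none was past the fold. The background shares are the 2.86% and 4.98% given above.

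Markers of other cell types, among them types in which some of these genes are known, were mostly not detected. None of 10 genes of multiciliated cells, 5 measured gastric chief cell genes, 10 endoderm genes or 7 fibroblast genes was detected in 3BKO against WT at day 9. Their summed levels in 3BKO and WT were 21.9 and 11.1 CPM for multiciliated cells, 10.2 and 43.9 CPM for chief cells, 9.97 and 117 CPM for endoderm and 1.16 and 16.2 CPM for fibroblasts. In 3BKO 2 of the 10 multiciliated, 4 of the 5 chief cell, 3 of the 10 endoderm and 4 of the 7 fibroblast genes had no read. Of 9 trophoblast genes 1 was detected, Tfap2c, and it was past the fold (1.11), as were 2.86% of all detected genes. The 9 genes summed to 118 CPM in 3BKO and 66.1 CPM in WT, and 3 of them had no read in 3BKO. Summed chief cell, endoderm and fibroblast markers were thus lower in 3BKO than in WT, and summed multiciliated and trophoblast markers higher. In 3AKO the sums were 35.8 CPM for multiciliated, 10.5 for chief cell, 93.5 for endoderm, 42.3 for fibroblast and 104 for trophoblast markers. All but the fibroblast direction were therefore shared by 3AKO and not particular to 3BKO. Sums of lists without a detected gene rest on genes below the detection limit. The part of chief cell and multiciliated markers in the levels of Pgc and Dnah11 was not tested.

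Pluripotency genes separated the groups in a way that runs beside the 6 genes. Of 12 detected naive genes 5 were past the fold in 3BKO, among them Tbx3 (2.49), Klf5 (2.26), Klf4 (2.07) and Zfp42 (1.24), none was lower, and the median was 0.91, where 2.86% of all detected genes were past the fold upward and 4.98% downward. Of 6 detected primed genes 4 were lower, Sall2 (-4.71), Pim2 (-4.69), Fgf5 (-4.32) and Lef1 (-1.48), and none was higher. For the methylation machinery 7 of 8 genes were detected, with Dnmt3l higher (2.26) and Dnmt3b (-3.27) and Dnmt3a (-1.38) lower, while Dnmt1 was at -0.99 and below the fold in batch 1. In 3AKO none of 11 detected naive and none of 6 detected primed genes was past the fold, beside 1.07% upward and 1.59% downward over all detected genes.

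Several genes outside the list had a pattern like it. Across the 12 sums of group and batch, the 5 of 10011 genes most like the mean of the 6 (Pearson r of log2(CPM + 1)) were Alox12b (0.98), Atp1b1 (0.96), Lnx1 (0.95), Mpp1 (0.95) and Tsc22d4 (0.94). Alox12b, a lipoxygenase of the epidermal barrier, had a log2 ratio of 3.95 in 3BKO and -1.46 in 3AKO against WT, and Atp1b1 is a sodium pump subunit (2.43 and -0.39). The 12 points share groups, and the 2 that stand out are the 3BKO day 9 sums that chose the genes. Within WT day 9 cells the number of the 6 genes read was most like Mylpf (r = 0.48 and 0.56 in batches 1 and 2), Aqp3 (0.47 and 0.56), a water and glycerol channel, Fxyd2 (0.43 and 0.53), a regulator of the sodium pump, Eif2s2 (0.43 and 0.50) and Txnip (0.43 and 0.45). These 5 were chosen in WT cells, but the number they follow counts genes that were themselves chosen as high in 3BKO. In 3BKO against WT the log2 ratios of the 5 were 1.44, 1.32, 2.04, 0.86 and 0.92, beside a median of -0.08 over all detected genes. In 3AKO against WT they were -0.82, -1.38, -2.06, -0.33 and -2.58, beside a median of -0.10. Both sets of ratios share the WT cells in which these genes were chosen.

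Inside the 67 3BKO day 9 cells the genes most like each of the 6, searched without the other 5, differed from gene to gene. They were Tbc1d25 and Rras2 for Slc6a12 (r = 0.47 and 0.44), Chic2 and Ppp1r2 for Prss35 (0.53 and 0.50), and Ubr4 and Alox12b for Moxd1 (0.48 and 0.43). For Calcoco2 they were Gabarapl2, an autophagosome protein, and Fscn1 (0.50 and 0.50), for Pgc the lysosomal protease gene Lgmn and Sgk1 (0.57 and 0.47), and for Dnah11 Hacd1 and Osbp (0.45 and 0.41). They were picked as the highest of 7785 genes by the lower of the r values of both batches, and cells of 1 group share their libraries, so these r values are descriptions.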

How the data were processed

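The authors deposited a table of counts per gene and cell from single-cell Smart-seq2 libraries. Per the labels and the study's methods, reads were checked with FastQC 0.11.2, trimmed with Trim Galore 0.5.0, aligned to mm10 (GRCm38.p6) with STAR 2.7.1a and counted with featureCounts 1.6.1, on the GENCODE M23 annotation, leaving out reads that map to several places, so paralogues such as Slc6a12 and Slc6a13 hold only reads unique to each. The strand setting is not given in the sources used here.

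The genes and gene lists were chosen with earlier results of these data known. No doublet caller was run (1 sorted cell per well), no cell column repeated another, and 26 columns named EMPTY or MiniBulk were not used. Counts of the 486 kept cells were summed per group and batch and given as CPM, and log2 ratios had 1 CPM added. For shares, cells were thinned to 50000 reads without replacement. Intervals are exact Poisson or Clopper-Pearson (95%), the interval of a difference of shares was built from the exact limits, and a count of 0 allows up to 3. No test was run, since the labels give 1 sample for each genotype and day. Named besides the 6 genes are at most 4 detected genes of each list, the nearest protein-coding neighbours, the 5 genes most like the set and the 2 most like each gene, without mitochondrial genes, numbered gene models and cDNA clone names. Genes of a list were taken by largest difference, except in the osmotic and autophagy lists. There Hspa4l and Sqstm1, among the largest 4 of their lists and not past the fold, were passed over, and Nfat5 was named. Alternatives were edgeR 4.0.16 TMM and DESeq2 1.42.0 size factors, other pseudocounts, cell filters, batches, read minimums and the mean of single-cell CPM. The sums and ratios were tested on simulated data. Gene positions come from the GENCODE vM21 annotation of GRCm38, an earlier release than the counting used, which held 97.0% of the gene names in the table. Python 3.11.15 and R 4.3.3 were used.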

Additional observations from a re-analysis of the deposited data

Results flagged for a closer look

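Calcoco2 and Pgc had log2 ratios of opposite sign in the 2 knockouts at day 9, in both batches, though neither could be called in 3AKO. Against WT, the log2 ratio of Calcoco2 was 2.03 and 2.71 in 3BKO and -3.21 and -1.75 in 3AKO (batches 1 and 2). For Pgc it was 1.69 and 2.94 in 3BKO and -3.36 and -1.26 in 3AKO. The difference between the knockouts was not tested, both comparisons share the WT cells, and the 3AKO values rest on 12 cells with a Calcoco2 read and 4 cells with a Pgc read (3 and 5 reads in batches 1 and 2). Without the WT cell that held the most reads of the gene in each batch, WT Calcoco2 was 22.4 and 32.6 CPM against 8.46 and 13 CPM in 3AKO, and WT Pgc was 8.37 and 0.941 CPM against 0.215 and 0.505 CPM. The Pgc values of batch 2 are then within counting error (3AKO interval 0.164 to 1.18 CPM), and without the WT cell with the most Calcoco2 reads the Calcoco2 ratio in batch 1 was -1.31.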

How the results depend on the processing

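The median log2 ratio of the 6 genes in 3BKO against WT at day 9 (3.38) was 2.90 in batch 1 alone, 3.88 in batch 2 alone, 3.68 with 0.1 CPM added and 2.26 with 10 CPM added. It was 4.06 without the top WT cell of each gene and 3.94 without the WT cell with the most Calcoco2 reads, both settings chosen after seeing the data. The count of genes past the fold was 6 in all settings run except detection in 40% of cells, where it was 3, because only 3 of the genes were then tested; over all genes that limit gave 145 calls, a limit of 10% gave 423 and no limit 714, against 264. The difference in the share of cells with 2 or more genes (63.4 points) was 46.6 points for 3 or more genes. The median in 3AKO against WT (-0.61) reversed to 0.27 without the top WT cell of each gene and ran from -1.01 to -0.13 in the other 11 alternatives. DESeq2 size factors moved the median log2 ratio in 3BKO against WT from -0.07 to 0.04 over genes read in 20% of the cells of either group with batches pooled (a wider set than that detected in each batch, whose median was -0.08), and that of the 6 genes to 3.47. The WT share of cells with 2 or more genes (11.2%) ran from 7.14% to 13.5% over 7 alternatives, and the share with 3 or more was 5.62%. No paired analysis was possible because each group is 1 sample. Leaving out a replicate was not possible for the same reason. Levels with under 3 reads cannot be told from none at this depth.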
